A study of Mus with 16 samples.

Results

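The transcripts described here are either present or absent, by set limits on reads, in each of 4 crosses of mouse epiblast stem cells. A transcript counted as present in a cross when all 4 of its libraries held at least 10 reads, and as absent when all 4 held at most 3 reads. Every cross had to be in 1 of these states, with at least 1 cross in each, and transcripts present in SpretB6 alone were left out. The rule found 125 of 116747 listed transcripts, or 0.107%. Since the rule was applied to the reads of all 16 libraries, the states themselves are a description and carry no test.

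Each cross is an F1 hybrid between C57Bl/6J laboratory mice and 1 of 4 wild-derived inbred strains. CastB6 has 4 libraries, as do MolfB6, PwkB6 and SpretB6. Total RNA was depleted of ribosomal RNA and sequenced in bulk, and the labels name no treatment or time point that separates the groups. All groups carry a C57Bl/6J chromosome set. Neither the sex of a line nor a separate culture or clone behind each library is stated, so the p-values describe how these libraries vary, and that variation may be technical. Library totals ran from 42596559 estimated reads in PwkB6 1 to 72364991 in SpretB6 3. In bulk RNA, fewer cells with a transcript and less of it per cell cannot be told apart. PwkB6 5 was closest to MolfB6 6 rather than to a library of its own cross (Spearman correlation of log2 CPM across transcripts 0.9052), and counts that move by over 1.5 times without it are given. Transcripts carry Ensembl IDs only, and 0 of the 125 could be paired with a gene name from the gene table used here, so neither the epiblast markers nor the function of these transcripts was checked.

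Epiblast stem cells are primed pluripotent cells that resemble the epiblast after implantation. Wild-derived inbred strains differ from C57Bl/6J in single bases, in insertions and deletions, and in which copies of repeated or duplicated genes they carry. An F1 hybrid carries a chromosome set of both parents, so its RNA is a mixture from both. Reads were assigned to transcripts of a fixed list, and a read that matches several similar transcripts is divided among them, so a transcript with no reads is one to which no read was assigned.

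Of the 125 transcripts, 39 were present in 1 cross, 25 in 2 crosses and 61 in 3. Absence was complete in 65 of the 125, where no library of any absent cross held a single read. The others had some reads in an absent cross, and 19 had a library with 3 reads, the most the rule allows. Levels where present ranged widely. All present libraries held at least 50 reads in 56 transcripts, at least 100 in 38 and at least 1000 in 10. By mean TPM, an abundance scaled by transcript length and library depth, 6 of the transcripts were among the 1000 most abundant in PwkB6, 5 in CastB6, 5 in MolfB6 and 3 in SpretB6. The counts for CastB6, MolfB6 and PwkB6 include ENSMUST00000239383.2 (ranks 376, 606 and 432). At 93 bases, it ranks high from only 17 to 46 reads in a library. Together the 125 transcripts took 0.0588% to 0.133% of the reads of a library. The 5 transcripts with the most reads made up 75.3% of this share for CastB6, 81% for MolfB6, 77% for PwkB6 and 56.9% for SpretB6.

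**Figure D1:**
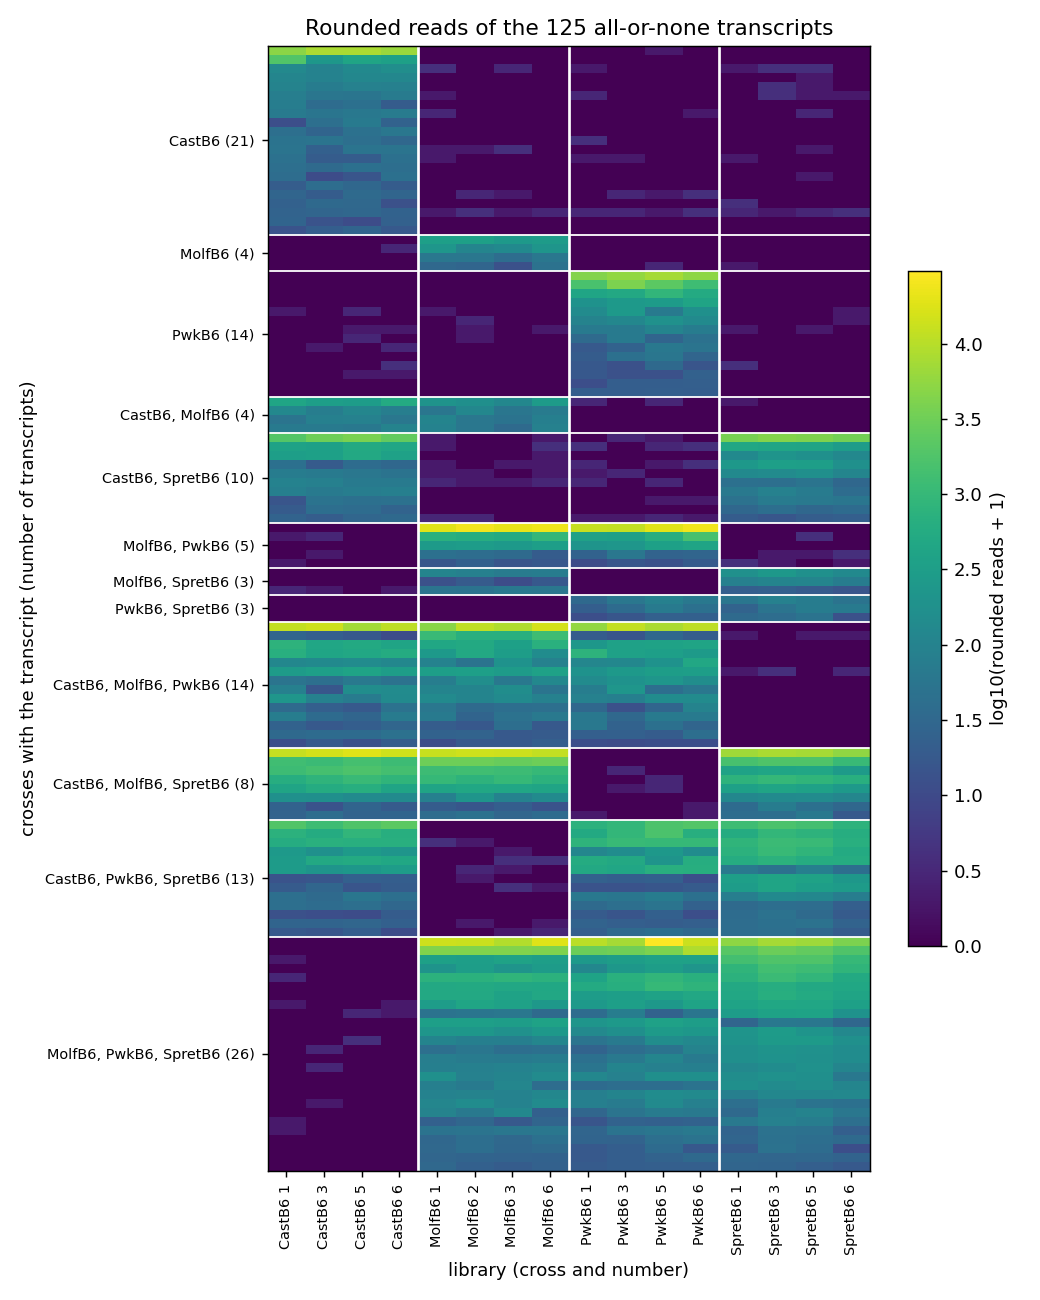
Rounded reads of the 125 transcripts (rows, grouped by the crosses that have them) in the 16 libraries (columns), as log10(reads + 1). Dark blocks are the absent crosses with at most 3 reads, and the brightest rows of each block hold most of the reads.

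Of the patterns kept, the largest was absence in CastB6 alone, with 26 transcripts, followed by presence in CastB6 alone with 21. That second place rests on the limits. Without rounding, presence in CastB6 alone, presence in PwkB6 alone and absence in SpretB6 alone tied at 13. Presence in CastB6 alone and in PwkB6 alone tied at 7 when presence needed 50 reads. When absence needed 0 reads, CastB6 alone held 8 against 12 absent in SpretB6 alone. At the limits used, presence in PwkB6 alone held 14, absence in SpretB6 alone 14, absence in MolfB6 alone 13 and absence in PwkB6 alone 8. Only 4 transcripts were present in MolfB6 alone. Of the patterns with 2 crosses, CastB6 with SpretB6 held 10, MolfB6 with PwkB6 held 5, CastB6 with MolfB6 held 4, and MolfB6 with SpretB6 and PwkB6 with SpretB6 held 3 each. Of the 125 transcripts, MolfB6 and PwkB6 were in the same state in 76, MolfB6 and SpretB6 in 72, PwkB6 and SpretB6 in 71, CastB6 and SpretB6 in 54, CastB6 and MolfB6 in 43, and CastB6 and PwkB6 in 34. The left-out pattern weighs on this comparison. When the 160 transcripts present in SpretB6 alone were added, MolfB6 and PwkB6 shared their state in 236 of 285, CastB6 and MolfB6 in 203 and CastB6 and PwkB6 in 194, since each of these pairs gains all 160. The pairs with SpretB6 gain none, and shared their state in 72 (MolfB6), 71 (PwkB6) and 54 (CastB6) of 285.

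Some pattern sizes rest on the limits or on 1 library. Without rounding the estimates, 13 instead of 21 transcripts were present in CastB6 alone and 3 instead of 5 in MolfB6 and PwkB6. Transcripts present in MolfB6 alone numbered 11 without MolfB6 2, 10 without MolfB6 3 and 8 without MolfB6 6. Those absent in PwkB6 alone numbered 14 without PwkB6 5, and those absent in SpretB6 alone 22 without SpretB6 3. The pattern of MolfB6 with PwkB6 held 10 without CastB6 1, 8 without PwkB6 6 and 8 without SpretB6 5. The pattern of PwkB6 with SpretB6 held 5 without CastB6 6 and 6 without PwkB6 5, that of MolfB6 with SpretB6 5 without CastB6 6, and that of CastB6 with MolfB6 7 without PwkB6 6.

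**Figure D2:**
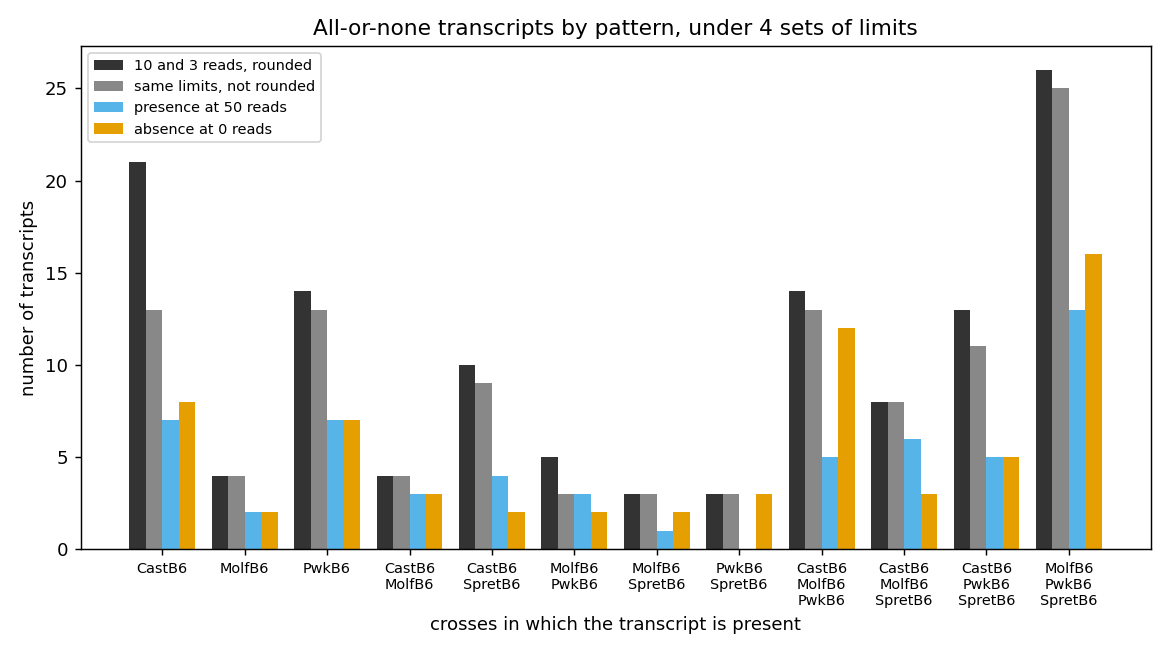
Number of transcripts (bars) in each pattern of crosses under the limits of 10 and 3 reads, the same limits without rounding, presence at 50 reads, and absence at 0 reads. Absence in CastB6 alone leads under all of these, with 26, 25, 13 and 16 transcripts.

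Just inside the limit, ENSMUST00000040983.6 had 27, 13, 10 and 24 reads in the CastB6 libraries and 0 in the 12 others. ENSMUST00000220164.2, described further with the pair tests, had 28, 22, 17 and 10 reads in CastB6. Just outside it, ENSMUST00000031691.3 had 10, 16, 9 and 16 reads in CastB6 and 0 elsewhere, and ENSMUST00000121711.3 had 9 reads in MolfB6 1, 13 to 31 in the other MolfB6 and the PwkB6 libraries, and at most 2 in CastB6 and SpretB6. Of the transcripts that would otherwise have joined the 125, 7 were kept out by a single library with 9 reads and 21 by a single library with 4 reads.

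A library left out of the rule gives a look at the states that the choice did not use. Chosen on 15 libraries, the set held between 131 transcripts (without MolfB6 1) and 145 (without MolfB6 2 or PwkB6 6). By construction the 125 are those that keep their pattern in the library left out, which is 95.4% of those chosen without MolfB6 1 and 86.2% of those chosen without MolfB6 2 or PwkB6 6. Of 77 transcripts chosen as present in MolfB6 from its other 3 libraries, 64 were present in MolfB6 2 and 11 had at most 3 reads there. Over all listed transcripts, 93.98% of those present in the other 3 MolfB6 libraries were present in MolfB6 2. Of 76 chosen as absent in SpretB6 without SpretB6 3, 62 were absent in that library and 6 had at least 10 reads, while 94.84% of all transcripts absent in the other 3 SpretB6 libraries were absent in it. All 63 chosen as present in SpretB6 without SpretB6 3 were present in that library, against 98.17% of all transcripts. Of 67 chosen without SpretB6 1, 63 were present in it and 0 had at most 3 reads, against 96.13% of all transcripts present. In every library left out, absence held less often for the chosen transcripts than over all listed ones. For CastB6 1 it held in 55 of 65, against 94.96%. The gap was smallest for MolfB6 6, at 61 of 64 against 95.5%. Presence also held less often than over all listed transcripts, except in SpretB6 3, 5 and 6. The sets are unlike, since all listed transcripts include the 36939 absent in all 4 crosses.

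Among transcripts present in CastB6 alone, ENSMUST00000121821.2, of 636 bases, had the most reads. It stood at 189.8, 357, 284 and 248 TPM in the CastB6 libraries, at 1 read in PwkB6 5, and at 0 reads in the 11 other libraries. ENSMUST00000189941.2, of 678 bases, had no read outside CastB6 and was uneven within it, at 64.6 TPM in CastB6 1 and at 9.36, 13 and 12.5 TPM in CastB6 3, 5 and 6. The rest were low. The median of the 21 was 1.55 TPM (mean over the CastB6 libraries), and the lowest was 0.0521 TPM.

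Transcripts present in PwkB6 alone included a short RNA with a steady level. ENSMUST00000178657.2, of 483 bases, stood at 385, 393, 382 and 345 TPM in PwkB6 (376 ± 21.4, SD, n = 4) and had no read in any other cross, so its depth-scaled count was at least 8010-fold lower in each (3 reads over the 4 libraries of a cross taken as the upper limit of a zero). ENSMUST00000182017.2, of 453 bases, had no read elsewhere either but spread over 150.6, 312, 123 and 88.5 TPM in PwkB6. Such a bound covers counting error only and not how shared reads were divided. In MolfB6 alone, ENSMUST00000110187.8, of 3327 bases, stood at 2, 1.96, 1.67 and 1.61 TPM, with no read elsewhere. ENSMUST00000139762.2, of 917 bases, stood at 5.6, 2.48, 3.61 and 5.07 TPM in MolfB6, with 2 reads in CastB6 6 and none in the other 11. No library of the other crosses came near these levels, as the rule requires.

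**Figure D3:**
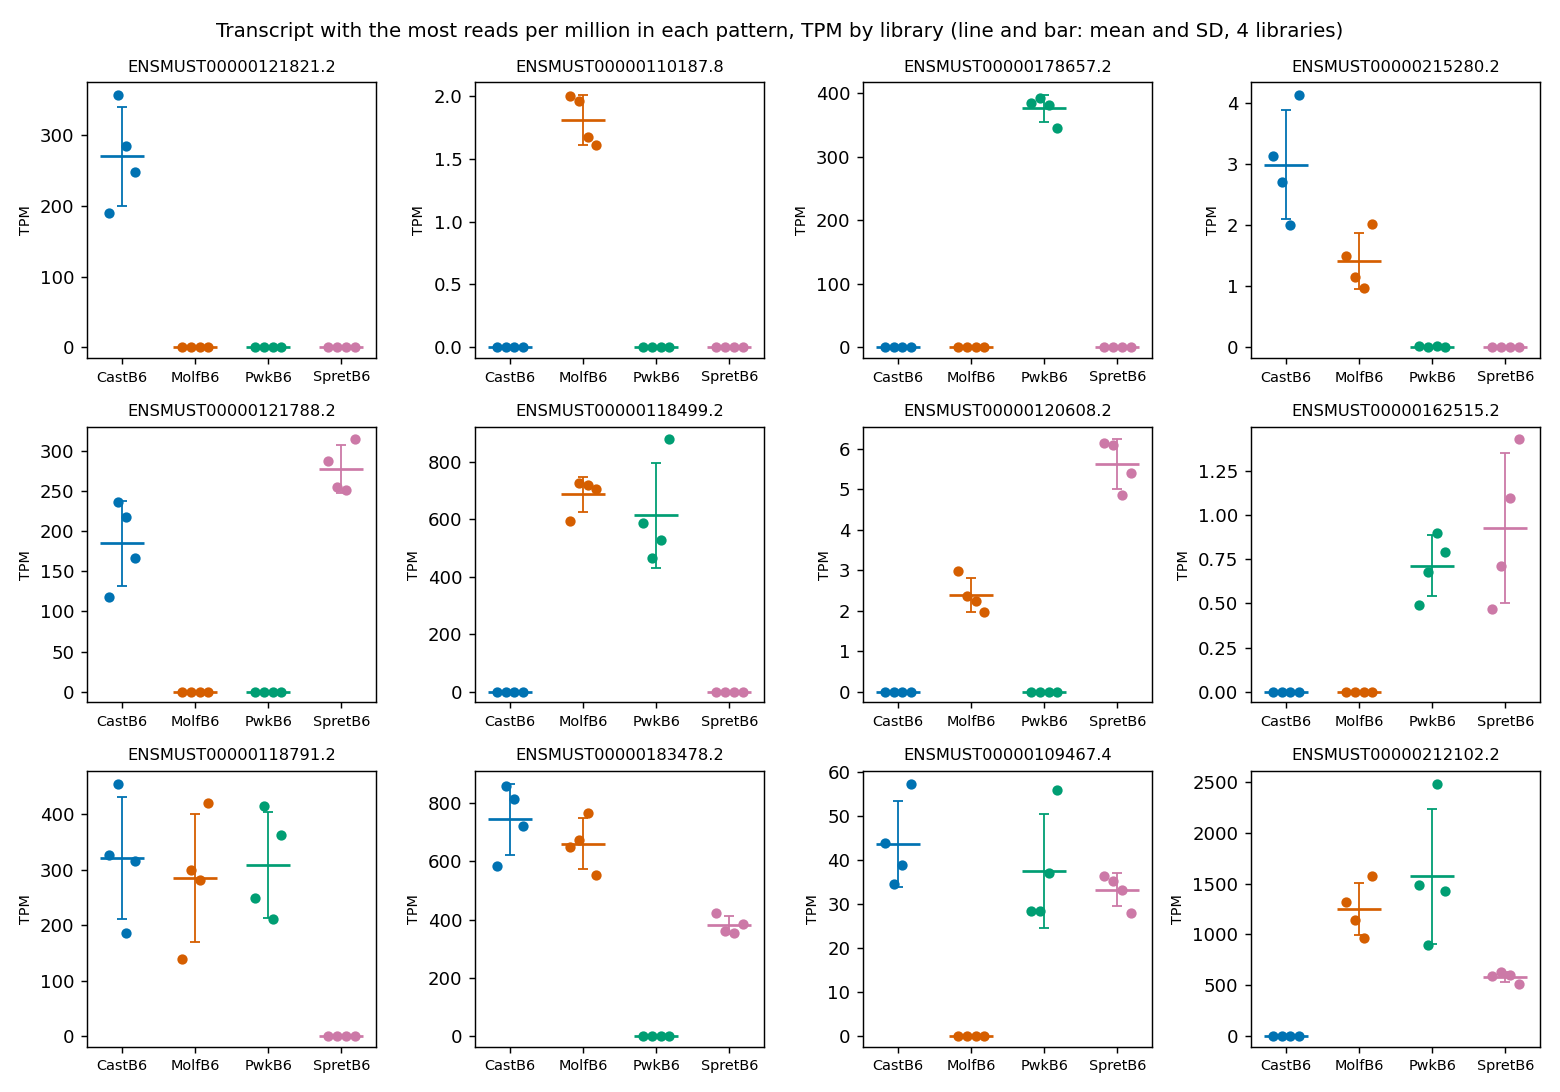
TPM by library (points) of the transcript with the highest depth-scaled count in each of the 12 patterns, with the mean and SD over 4 libraries (line and bar). The rule and the choice of the highest transcript set the gap between present and absent crosses. An example is ENSMUST00000118499.2, with 464 to 878 TPM in MolfB6 and PwkB6 and none elsewhere.

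Where only 2 crosses had a transcript, their levels differed by 1.03-fold (ENSMUST00000032395.8) to 8.19-fold (ENSMUST00000167221.2). ENSMUST00000118499.2, of 750 bases, is the most abundant transcript of these patterns. It stood at 596, 728, 721 and 704 TPM in MolfB6 and at 588, 464, 527 and 878 TPM in PwkB6, and had 0 reads in all 8 CastB6 and SpretB6 libraries. It ranked 194 by mean TPM among all transcripts in MolfB6 and 209 in PwkB6, and was at least 27100-fold lower in CastB6 and 25500-fold lower in SpretB6. The MolfB6 and PwkB6 libraries overlapped (log2 fold change 0.37 ± 0.15, SE; edgeR quasi-likelihood adjusted p = 0.375). ENSMUST00000032395.8, of 858 bases, shared the pattern at 15 to 23.7 TPM in MolfB6 and 11.5 to 14.6 TPM in PwkB6 1, 3 and 5, but stood at 45.7 TPM in PwkB6 6.

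CastB6 and SpretB6 shared 10 transcripts that the other crosses lacked. ENSMUST00000121788.2, of 438 bases, stood at 118, 236, 218 and 167 TPM in CastB6 and at 288, 256, 251 and 314 TPM in SpretB6, against at most 2 reads in any MolfB6 or PwkB6 library. All SpretB6 libraries lay above the CastB6 ones, but the difference missed the threshold (log2 fold change -0.47 ± 0.28, SE; edgeR adjusted p = 0.413). ENSMUST00000118272.2, of 389 bases, overlapped between them, at 28.4 to 37.7 TPM in CastB6 and 30.3 to 43.7 TPM in SpretB6. Its absence was less complete, with up to 3 reads in MolfB6 and PwkB6 libraries.

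The other patterns with 2 crosses held weaker transcripts. In CastB6 and MolfB6, ENSMUST00000215280.2, of 2683 bases, stood at 2 to 4.14 TPM and 0.975 to 2.02 TPM, and ENSMUST00000169215.8, of 984 bases, at 1.9 to 2.68 TPM and 1.25 to 2.43 TPM. In PwkB6 and SpretB6, ENSMUST00000161584.2, of 342 bases, stood at 4.96 to 7.48 TPM and 6.57 to 8.06 TPM. ENSMUST00000162515.2 and ENSMUST00000159051.2 of the same pattern stayed under 1.5 TPM in every library. None of these 5 differed past the threshold between the crosses that had them. In MolfB6 and SpretB6, ENSMUST00000119065.2, of 874 bases, was 7.17-fold lower in MolfB6 (0.288 to 0.432 TPM) than in SpretB6 (2.36 to 2.81 TPM; log2 fold change -2.84 ± 0.36, SE; edgeR adjusted p = 0.00248). The MolfB6 libraries of ENSMUST00000119065.2 held 10 to 18 reads, near the limit for presence. ENSMUST00000120608.2, of 810 bases, was 2.33-fold lower in MolfB6 (edgeR adjusted p = 0.0296). Every removal of a MolfB6 or SpretB6 library ended this call, with adjusted p from 0.056 to 0.099. ENSMUST00000235834.2, of 1230 bases, stood at 0.799 to 1.16 TPM in MolfB6 and 0.3 to 0.433 TPM in SpretB6 without passing it (adjusted p = 0.148).

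Transcripts missing from a single cross included the most abundant ones. ENSMUST00000212102.2, of 351 bases, had 0 reads in CastB6. It stood at 1314, 1142, 966 and 1575 TPM in MolfB6, at 1481, 898, 2478 and 1422 TPM in PwkB6, and at 587, 629, 599 and 514 TPM in SpretB6. By mean TPM it ranked 72 in PwkB6, 104 in MolfB6 and 237 in SpretB6. All SpretB6 libraries lay below all MolfB6 and PwkB6 libraries, and the difference from PwkB6 passed the threshold (log2 fold change 1.31 ± 0.30, SE; edgeR adjusted p = 0.0258) while that from MolfB6 did not (1.13 ± 0.30; adjusted p = 0.051). The call against PwkB6 was lost without PwkB6 1 or without any 1 SpretB6 library, at adjusted p from 0.0575 to 0.0736.

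ENSMUST00000081204.6, of 1891 bases, was likewise missing from CastB6. It stood at 42.1 to 50.2 TPM in MolfB6 and 25.7 to 28.7 TPM in SpretB6, and in PwkB6 at 38.6 to 48.6 TPM in 3 libraries and 108.5 TPM in PwkB6 6. SpretB6 lay below both other crosses without overlap (edgeR adjusted p = 0.0465 against MolfB6 and 0.0195 against PwkB6). The call against MolfB6 was lost without any 1 library of either cross (adjusted p from 0.0936 to 0.139), and that against PwkB6 without any 1 SpretB6 library (0.051 to 0.067). PwkB6 6 was the high library for both this transcript and ENSMUST00000032395.8.

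From PwkB6 alone, ENSMUST00000183478.2, of 538 bases, was missing with 0 reads, at least 14500-fold lower there. It stood at 583, 858, 815 and 722 TPM in CastB6, at 650, 672, 766 and 553 TPM in MolfB6, and at 424, 361, 354 and 385 TPM in SpretB6. SpretB6 was 2.11-fold lower than CastB6 (adjusted p = 0.00174) and 1.75-fold lower than MolfB6 (edgeR adjusted p = 0.011), with no overlap of libraries. ENSMUST00000121654.2, of 768 bases, stood at 36.9 to 39.9 TPM in CastB6, 46.1 to 55.2 TPM in SpretB6 and 87 to 95.5 TPM in MolfB6. MolfB6 was 2.26-fold above CastB6 (edgeR adjusted p = 4.73e-05) and 1.86-fold above SpretB6 (adjusted p = 0.000237). CastB6 and SpretB6 did not overlap, but their difference missed the threshold (adjusted p = 0.148).

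From SpretB6 alone, ENSMUST00000118791.2, of 801 bases, was missing with 0 reads. The libraries of its 3 present crosses overlapped, at 327.5, 455, 187 and 316 TPM in CastB6, 139, 300.3, 282 and 421 TPM in MolfB6 and 249, 415, 211 and 364 TPM in PwkB6. ENSMUST00000087442.11, of 2728 bases, stood at 2.48 to 5.59 TPM across the same 12 libraries. Neither differed past the threshold between present crosses.

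From MolfB6 alone, ENSMUST00000109467.4, of 904 bases, was missing with 0 reads and stood at 28 to 57.2 TPM in the 12 others. ENSMUST00000197077.2, of 477 bases, had at most 3 reads in a MolfB6 library, 32.8 to 45.1 TPM in CastB6, 51.6 to 75.8 TPM in PwkB6 and 54.7 to 60.1 TPM in SpretB6. The lower CastB6 level did not pass the threshold here (adjusted p = 0.3 against PwkB6 and 0.378 against SpretB6, edgeR).

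For 7 of the 125 transcripts (5.6%) the estimates were whole numbers within 0.001 in all 16 libraries, so no division of reads among similar transcripts was visible. The share over all 56721 tested transcripts was 2.35%. The 2 sets are unlike, since the rule leaves each of the 125 with few or 0 reads in at least 1 cross. A zero is always a whole number, so no excess can be read from these shares. Apart from 1 transcript with up to 229 reads, these had at most 67 reads in a library. ENSMUST00000139762.2, above, had 109 to 229 reads in MolfB6. In CastB6 alone, ENSMUST00000239103.2, of 437 bases, had 11, 42, 67 and 25 reads, ENSMUST00000120599.2, of 268 bases, 13, 21, 27 and 17, and ENSMUST00000040983.6, of 6834 bases, 10 to 27. In PwkB6 alone, ENSMUST00000199402.2, of 1203 bases, had 17, 25, 61 and 52 reads, and ENSMUST00000164848.3, of 4472 bases, 12 to 24. ENSMUST00000239383.2, of only 93 bases, had 17 to 46 reads in CastB6, MolfB6 and PwkB6 libraries and 0 in SpretB6. Its 122 to 404 TPM come from few reads over a very short length.

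The rule does not choose between crosses that both have a transcript, so their levels could be compared. All 86 transcripts present in 2 or 3 crosses entered the test, which was fitted over 56721 transcripts with edgeR's quasi-likelihood F test and Benjamini-Hochberg adjustment at 0.05. Of the 86, 23 differed in at least 1 pair of crosses that both had them. The 63 others gave no call, which does not show equal levels. Calls were made in 10 of the 26 transcripts missing from CastB6 alone, against 10.2% of all transcripts with at least 10 reads in the 12 libraries of the same 3 crosses. The counts were 5 of the 13 missing from MolfB6 alone, against 13.3%, 3 of the 8 missing from PwkB6 alone, against 11.8%, and 2 of the 14 missing from SpretB6 alone, against 7.27%. Of those present in 2 crosses, 2 of the 3 in MolfB6 and SpretB6 and 1 of the 10 in CastB6 and SpretB6 were called. The shares over all transcripts with at least 10 reads in the 8 libraries were 6.3% and 7.15%. In the other 3 patterns 0 were called, of 4 in CastB6 and MolfB6, 5 in MolfB6 and PwkB6, and 3 in PwkB6 and SpretB6. There the shares were 3.37%, 1.37% and 6.51%. So few transcripts do not separate the members from these shares. In 21 of the 23 a called pair included SpretB6. The patterns partly fix this count. The 2 others are missing from SpretB6, so they had no pair with it. Members present in SpretB6 and 1 other cross had only that pair. Of the called members present in SpretB6 and 2 other crosses, all had a call with SpretB6. They were 3 of 3 with CastB6 and MolfB6, 5 of 5 with CastB6 and PwkB6, and 10 of 10 with MolfB6 and PwkB6. Among all called transcripts present in the same 3 crosses the shares were 91.4%, 85.3% and 97.4%.

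In pairs without SpretB6, calls were few. CastB6 and MolfB6 differed in 2 of the 26 transcripts that both had, against 2.76% of all tested transcripts and 3.37% of those with at least 10 reads in all 8 libraries. CastB6 and PwkB6 differed in 1 of 27, against 3.76% and 4.82%, and MolfB6 and PwkB6 in 1 of 45, against 1.2% and 1.37%. These are 7.69%, 3.7% and 2.22% of the members, from 4 calls in all. In pairs with SpretB6 the members' shares were 25.8%, 32.4% and 31%, above the background. SpretB6 differed from CastB6 in 8 of 31, against 6.05% and 7.15%, from MolfB6 in 12 of 37, against 5.53% and 6.3%, and from PwkB6 in 13 of 42, against 5.5% and 6.51%. The median size of the log2 fold change was 0.60, 0.76 and 0.65 in these pairs, against 0.28, 0.27 and 0.30 over transcripts with at least 10 reads in both crosses. In the pairs without SpretB6 it was 0.28, 0.38 and 0.17, against 0.25, 0.32 and 0.25. The 3 comparisons share the SpretB6 libraries, and the same transcripts recur in them. SpretB6 was the higher cross in 5, 7 and 9 of the calls and the lower in 3, 5 and 4, so neither direction held throughout.

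**Figure D4:**
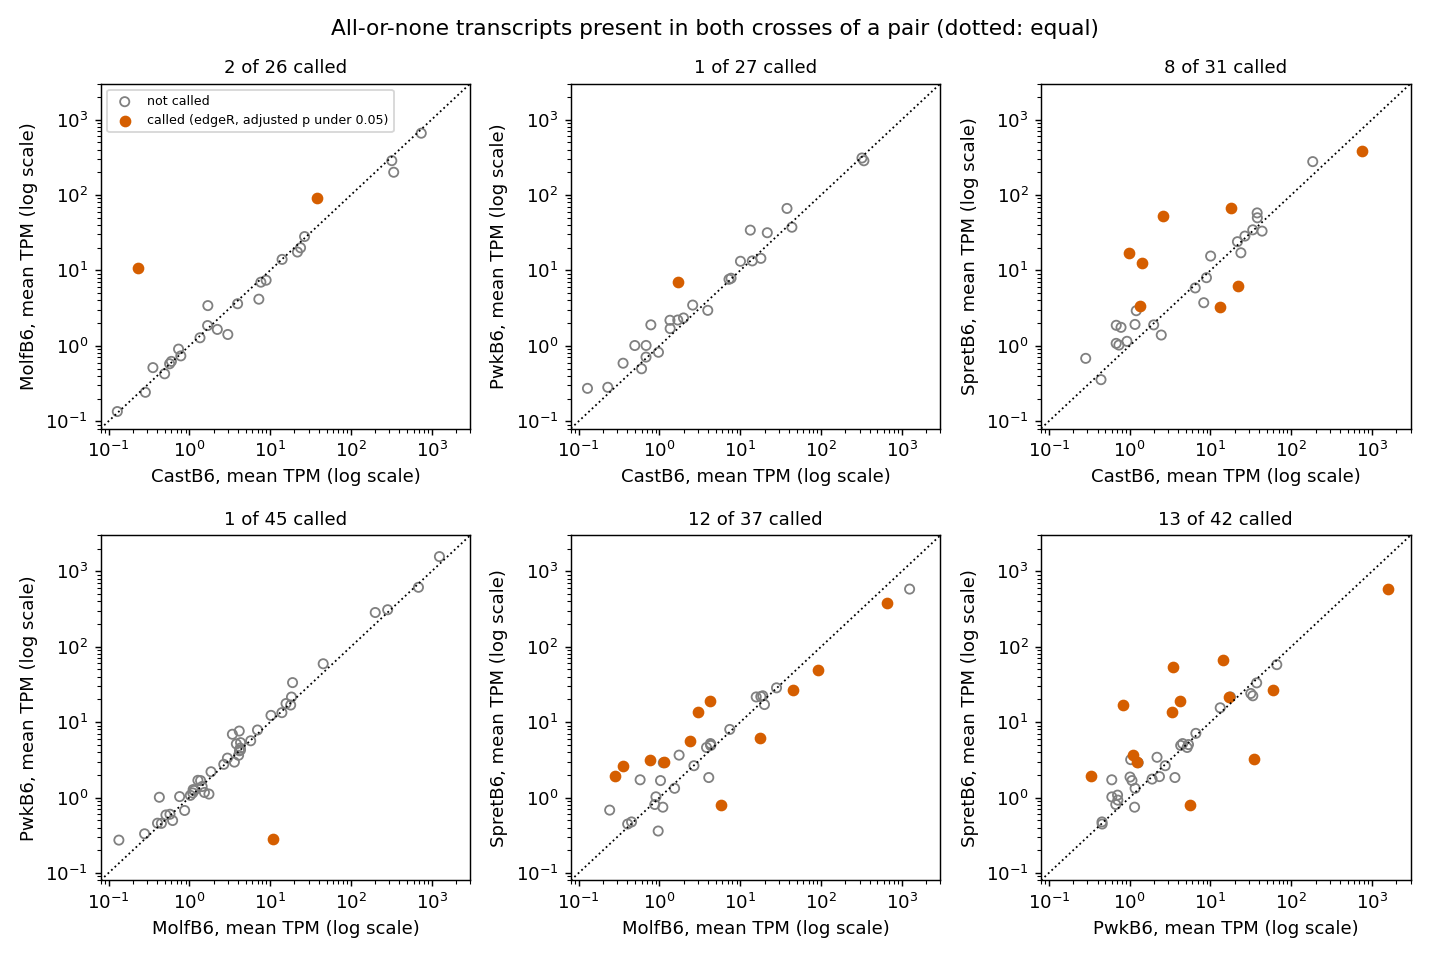
Mean TPM (log scales) in both crosses of a pair, for transcripts present in both (points), with equal levels as a dotted line and called differences filled. Points scatter further from the line in the 3 panels with SpretB6, where 8, 12 and 13 are called, than in the others, where 2, 1 and 1 are.

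The largest difference between crosses that both have a transcript was that of ENSMUST00000220164.2, of 1732 bases. It stood at 13.1, 7.3, 8.72 and 14 TPM in MolfB6, at 0.319, 0.3, 0.175 and 0.123 TPM in CastB6 and at 0.331, 0.208, 0.322 and 0.266 TPM in PwkB6, with at most 1 read in a SpretB6 library. The MolfB6 level was 43.4-fold that of CastB6 (log2 fold change of CastB6 minus MolfB6 -5.44 ± 0.43, SE; edgeR adjusted p = 2.73e-06) and 41.4-fold that of PwkB6 (adjusted p = 5.88e-06). CastB6 and PwkB6 overlapped, with 10 to 31 reads each, near the limit for presence.

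A similar shape appeared in 2 transcripts missing from MolfB6, where SpretB6 stood far above CastB6 and PwkB6. ENSMUST00000120855.2, of 276 bases, stood at 59.8, 52.1, 52.3 and 49.1 TPM in SpretB6, at 1.86 to 3.07 TPM in CastB6 and at 1.83 to 5.26 TPM in PwkB6, a difference of 19-fold from CastB6 (edgeR adjusted p = 8.69e-05) and 16.6-fold from PwkB6 (adjusted p = 0.000126). ENSMUST00000164169.2, of 549 bases, stood at 17.3, 16.9, 14.4 and 19.3 TPM in SpretB6, at 0.584 to 1.54 TPM in CastB6 and at 0.619 to 0.968 TPM in PwkB6, a difference of 16.4-fold and 23.1-fold (adjusted p = 0.000393 and 0.000183). Both had 11 to 29 reads in the CastB6 and PwkB6 libraries. Presence by this rule therefore spans levels that differ over 10-fold within 1 pattern.

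Other called transcripts, picked here after their values were seen, included differences in both directions from SpretB6. ENSMUST00000179882.3, of 513 bases and missing from MolfB6, stood at 28.6 to 39.4 TPM in PwkB6, 10.9 to 15.5 TPM in CastB6 and 2.11 to 4.12 TPM in SpretB6. PwkB6 was 9.39-fold (edgeR adjusted p = 0.000101) and CastB6 4.34-fold (adjusted p = 0.00262) above SpretB6. ENSMUST00000178288.3, of 1264 bases and missing from CastB6, stood at 5.31 to 6.18 TPM in MolfB6, 5.48 to 6.13 TPM in PwkB6 and 0.565 to 0.956 TPM in SpretB6, and was 7.37-fold and 6.48-fold higher in MolfB6 and PwkB6 than in SpretB6 (edgeR adjusted p = 5.48e-06 and 9.56e-06). The opposite held for ENSMUST00000121836.2 and ENSMUST00000177652.3, also missing from CastB6. ENSMUST00000121836.2, of 2325 bases, stood at 12.3 to 14.4 TPM in SpretB6 and at 2.6 to 3.7 TPM in MolfB6 and PwkB6 (adjusted p = 1.22e-05 and 1.35e-05). ENSMUST00000177652.3, of 1258 bases, stood at 17.6 to 20.7 TPM in SpretB6 and at 3.01 to 4.96 TPM in MolfB6 and PwkB6 (adjusted p = 0.000229 and 0.000132). Among further calls with SpretB6, ENSMUST00000121281.2, missing from MolfB6, was 3.46-fold and 5.06-fold higher in SpretB6 (mean 67.2 TPM) than in CastB6 and PwkB6 (edgeR adjusted p = 0.00106 and 0.000122). ENSMUST00000118978.2, missing from PwkB6, was lower in SpretB6 (mean 6.25 TPM) than in CastB6 (21.8 TPM, adjusted p = 0.000658) and MolfB6 (17.5 TPM, adjusted p = 0.00434). ENSMUST00000167221.2, present in CastB6 and SpretB6, was 8.19-fold higher in SpretB6 (edgeR adjusted p = 0.00178), with only 18 to 45 reads in the CastB6 libraries. SpretB6 thus stood at the top for some of these transcripts and at the bottom for others.

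The single call between CastB6 and PwkB6 was ENSMUST00000040746.8, of 720 bases and missing from SpretB6, at 1.61 to 1.88 TPM in CastB6 and 5.96 to 7.83 TPM in PwkB6 (3.45-fold, edgeR adjusted p = 0.0163). Without CastB6 3 it was no longer called (adjusted p = 0.0533), which left 0 calls in that pair.

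The transcripts were short. Their median length was 858 bases, with quartiles of 558 and 1696, against 1838 bases over all tested transcripts and 2234 over the 32231 present in all 4 crosses. Under 1000 bases were 60.8% of them, against 34.1% of the tested and 25.4% of those present in all crosses. The 160 transcripts present in SpretB6 alone were shorter still in the median, at 639 bases. Length varied among patterns, with medians of 521 bases in the 13 missing from MolfB6 alone, 755 in the 8 missing from PwkB6 alone, 1065 in the 14 missing from SpretB6 alone and 1208 in the 26 missing from CastB6 alone, and 2906 in the 4 present in MolfB6 alone.

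**Figure D5:**
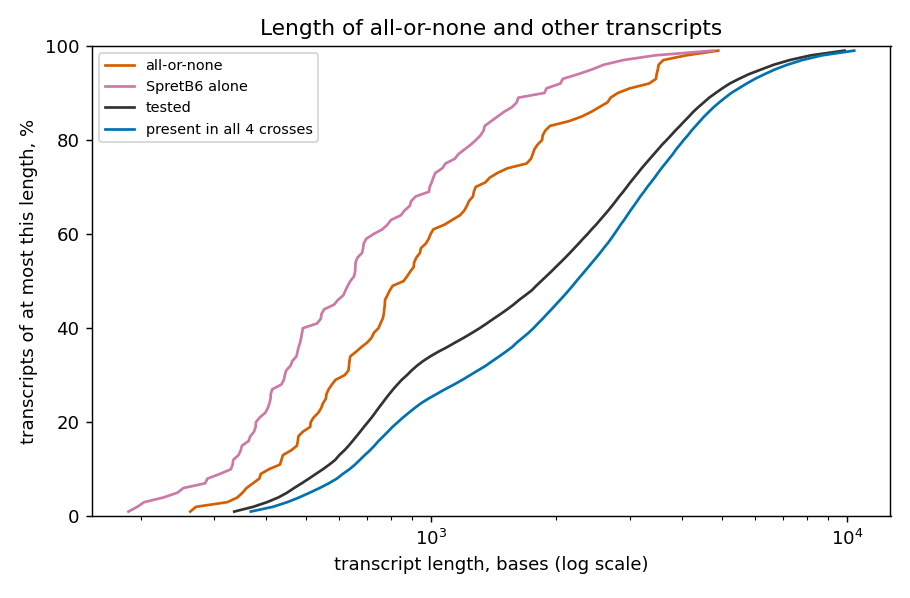
Share of transcripts (vertical axis, %) of at most a given length (horizontal axis, bases, log scale) for the 125 all-or-none transcripts, the 160 present in SpretB6 alone, all tested transcripts and those present in all 4 crosses. The curves of the first 2 sets lie to the left, with medians of 858 and 639 bases against 1838 and 2234.

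Transcript identifiers were also unevenly spread. The stretch from 117000 to 121999 was picked, after the members were known, as the longest run of numbers dense in members. It held 33 of the 125 (26.4%) and 37 of the 160 present in SpretB6 alone (23.1%), against 2.52% of the tested transcripts. Of the 1427 tested transcripts in that stretch, 2.31% were all-or-none by this rule, against 0.165% of the others. These shares of the members were raised by how the stretch was picked and carry no test. The 160 did not enter that choice. The median length of the tested transcripts in the stretch was 1618 bases, against 1842 bases for those outside it. A link between the stretch and length was not tested. The stretch holds ENSMUST00000118499.2, ENSMUST00000118791.2, ENSMUST00000121821.2 and ENSMUST00000121788.2 named above. What kind of transcripts these numbers were given to was not analysed here.

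Within the crosses that had them, the transcripts had a lower median spread between libraries than others did. The median coefficient of variation of TPM over 4 libraries was 22.6% for CastB6, 18.6% for MolfB6, 24.7% for PwkB6 and 12% for SpretB6. Over all transcripts present in the same cross it was 24.4%, 22.8%, 31.2% and 18.6%. Among transcripts with a mean of at least 100 reads the values were 18%, 16.6%, 21.5% and 9.84%, against 19.7%, 18.1%, 26.9% and 14.1%. The rule requires 10 reads in every library of a present cross, and the sets set beside them meet the same limit.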

How the data were processed

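Per the submitters' processing notes, reads were quantified with Salmon, DESeq2 was also used, and the genome build was mm10. Their versions and the transcript annotation are not given in the sources used. The deposited estimated counts (expected counts per transcript, not whole) and deposited TPM values were used per the file headers. Groups were taken from the titles. The members and all lists were chosen with earlier results of these data known. Estimated counts were rounded for the rule and the tests.

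Tests used edgeR 4.0.16 in R 4.3.3 on all 16 libraries, with filterByExpr (minimum count 10, minimum total 15), TMM scaling, a quasi-likelihood fit, and adjusted p under 0.05. Of the 125 transcripts 124 passed the filter. Standard errors were computed from the fold change and the F statistic. The scripts were tested on simulated data. Alternatives were DESeq2 1.42.0, limma 3.58.1 voom, other scaling, filters and limits, a replicate block, and each library left out. Named transcripts are the 2 with the highest mean CPM in each pattern (all where it has 3 or fewer), those with whole estimates, the 3 with the largest called folds between crosses that both have them, the 3 highest in mean TPM, and those next to the limits of the rule. A zero was bounded by 3 reads over a cross, for counting error only. The tables hold no read-division uncertainty, and alleles were not analysed here. The planned lists by gene name and sequence comparisons were not run, since no names or sequences could be paired with the transcripts.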

Additional observations from a re-analysis of the deposited data

Results flagged for a closer look

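In 79 groups of 4 libraries (library totals, the share of reads in all-or-none transcripts, and the TPM of named transcripts in the crosses that have them), 3 had 1 library far from the other 3. Chance flags about 1 in 20 such groups, or 3.95 here. ENSMUST00000189941.2 stood at 64.56 TPM in CastB6 1 and at 9.36 to 13 TPM in the other CastB6 libraries. ENSMUST00000032395.8 stood at 45.71 TPM in PwkB6 6 against 11.5 to 14.6 TPM, and ENSMUST00000081204.6 at 108.5 TPM in the same library against 38.6 to 48.6 TPM.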

How the results depend on the processing

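The 125 transcripts became 56 with at least 50 reads for presence, 65 with 0 reads for absence and 7 with whole estimates only. Without rounding, an alternative chosen after seeing the data, they were 109. With 1 library left out they numbered 131 to 145. Calls between CastB6 and PwkB6 (1) were 5 with DESeq2, 2 with limma voom and 2 with only these crosses in the fit, and 0 to 1 with a library left out. Of all tested transcripts, DESeq2 called 10%, voom 4.39% and the fit of only these crosses 1.32%, against 3.76% in the main fit. Calls between MolfB6 and PwkB6 (1) were 2 with DESeq2, with voom and with a filter of 1 CPM in 4 libraries. Of all tested transcripts these settings called 4.35%, 1.42% and 2.3%, against 1.2% in the main fit. Those between CastB6 and SpretB6 (8) were 15 with DESeq2 and 14 with voom. The shares over all tested transcripts were 11.1% and 6.58%, against 6.05% in the main fit. Those between MolfB6 and SpretB6 (12) were 20 with DESeq2, 20 with voom and 19 with only these crosses in the fit. The shares over all tested transcripts were 9.91%, 6.23% and 8.42%, against 5.53% in the main fit. Those between PwkB6 and SpretB6 (13) were 20 with voom, which called 6.26% of all tested transcripts, against 5.5% in the main fit. DESeq2 called 4.35% to 11.1% and voom 1.42% to 6.58% of all transcripts over the 6 pairs. With the replicate block, MolfB6 against SpretB6 gave 4 calls, while the share over all tested transcripts also fell, to 3.03%. The member calls of the other pairs stayed within 1.5 times. Libraries that share a number showed no common deviation (correlations from -0.067 to 0.133, against -0.195 to 0.219 for different numbers). This fails to show a pairing by number but cannot exclude one. Not every library correlated best with its own number. With a library left out, calls were 7 to 8 for CastB6 and SpretB6, 9 to 10 for MolfB6 and SpretB6 and 10 to 12 for PwkB6 and SpretB6. Over all alternatives, a called fold kept its call 485 times, lost it 70 times and changed sign in none.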
